A study of Mus musculus with 7 samples.

Results

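The 629 broadest H3K79me2 regions of mouse bone marrow-derived macrophages are described here, those on chromosomes 1 to 19 that ran for 30 kb or more without a break in the deposited list of regions. They were chosen by length alone and made up 2.14% of the 29397 regions. They covered 29.8 Mb, which was 24.2% of the 123 Mb covered by all regions. The cells were grown from the marrow of C57BL/6 mice for 7 to 8 days in medium conditioned by L929 cells as a source of M-CSF, and received 1 µM SGC0946, an inhibitor of DOT1L, or its solvent DMSO while they differentiated. There were 3 SGC0946 and 3 DMSO chromatin immunoprecipitation libraries, which the series calls biological replicates, and 1 input sample that was not analysed here. The growth protocol speaks of WT and KO mice and does not say which of them gave these samples. Both groups share the conditioned medium and the antibody, and the labels mention no spike-in.

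DOT1L is the enzyme that methylates lysine 79 of histone H3. The mark is laid down behind the start of transcribed genes and spreads along the gene body with elongating RNA polymerase II, so it is known as a mark of active transcription. A long unbroken domain is therefore usually found at a long gene that is being transcribed.

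In the counts as deposited, the domains kept a median of 13.4% of their DMSO count in SGC0946, and the 629 domains ranged from 9.35% to 72.4%. Every one of them fell. A small group of dense domains, led by those of Rbpj, Psap, Rap1b, Cdc42 and Osbpl8, kept far more than the rest, and the domains that kept the least were those inside Zmiz1 and at Trio, Arhgap31, Anp32a and Rxra. Percent kept means the mean SGC0946 count as a percent of the mean DMSO count. It rests on unscaled counts, and a lower mark and fewer reads sequenced per SGC0946 library cannot be told apart in it.

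The sequences at the start of 4 of these genes are shown because the domains began at such starts. They run 5′ to 3′ on the strand of the gene, 250 bases before to 50 bases after a start site listed by RefSeq for GRCm38.p6, the assembly named mm10 in the files, with each CpG dinucleotide in capitals. Gnaq led the longest domain, Osbpl8 and Rap1b were among the domains that kept the most, and Trio was among those that kept the least.
Gnaq: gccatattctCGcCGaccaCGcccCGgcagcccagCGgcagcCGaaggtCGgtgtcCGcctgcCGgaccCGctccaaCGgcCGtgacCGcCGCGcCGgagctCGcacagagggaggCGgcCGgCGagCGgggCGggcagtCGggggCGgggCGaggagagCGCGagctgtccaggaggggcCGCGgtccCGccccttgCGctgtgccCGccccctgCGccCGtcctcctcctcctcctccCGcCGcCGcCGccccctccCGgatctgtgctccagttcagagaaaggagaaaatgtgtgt
Osbpl8: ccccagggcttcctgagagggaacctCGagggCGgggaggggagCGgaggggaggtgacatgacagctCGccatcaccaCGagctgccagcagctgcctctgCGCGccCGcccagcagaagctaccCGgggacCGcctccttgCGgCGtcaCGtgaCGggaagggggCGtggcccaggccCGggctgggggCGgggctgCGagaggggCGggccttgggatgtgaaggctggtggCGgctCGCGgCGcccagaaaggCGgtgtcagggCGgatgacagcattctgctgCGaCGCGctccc
Rap1b: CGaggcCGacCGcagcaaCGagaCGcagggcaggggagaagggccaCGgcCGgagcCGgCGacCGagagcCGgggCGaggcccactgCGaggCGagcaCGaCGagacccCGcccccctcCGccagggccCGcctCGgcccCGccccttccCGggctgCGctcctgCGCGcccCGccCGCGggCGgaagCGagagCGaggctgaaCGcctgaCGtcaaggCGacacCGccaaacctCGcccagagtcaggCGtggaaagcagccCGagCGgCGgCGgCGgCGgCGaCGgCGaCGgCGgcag
Trio: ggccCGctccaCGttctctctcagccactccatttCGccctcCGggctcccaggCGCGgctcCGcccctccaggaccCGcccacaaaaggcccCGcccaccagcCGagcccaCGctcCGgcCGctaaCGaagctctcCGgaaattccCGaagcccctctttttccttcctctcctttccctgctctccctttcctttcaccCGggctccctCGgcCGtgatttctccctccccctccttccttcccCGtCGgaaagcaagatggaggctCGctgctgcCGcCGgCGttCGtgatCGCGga
The Gnaq stretch lies at chr19:16132434-16132733 on the plus strand and holds 39 CpG dinucleotides. The Osbpl8 stretch lies at chr10:111164552-111164851 on the plus strand and holds 28. The Rap1b stretch lies at chr10:117845925-117846224 on the minus strand and holds 48. The Trio stretch lies at chr15:28025799-28026098 on the minus strand and also holds 28. The Osbpl8, Rap1b and Trio stretches lay wholly inside their domains, and the Gnaq domain began within the stretch shown.

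Such CpG-rich starts were usual among the genes with domains. Of the start regions listed in RefSeq, 461 lay inside a domain, and their median GC content was 66.7%, against 61.0% for the 9614 start regions of coding genes with any H3K79me2 region. The ratio of observed to expected CpG had a median of 0.825 inside domains, 0.783 at coding genes with any region and 0.309 at the 10463 start regions of coding genes without one. A ratio of at least 0.6 was found in 75.9% of start regions inside domains, in 72.7% of those at genes with any region and in 27.1% of those at genes without a region. The motif TATAAA, searched on both strands as were the others, was present in 6.29% of the start regions inside domains, against 6.69% at genes with any region and 12.7% of all 20077 coding start regions. CCAAT was present in 32.5% of those inside domains and 38.1% of all, TGACTCA (the AP-1 motif) in 3.04% and 4.7%, and GAGGAAGT (a PU.1-like motif) in 2.82% and 3.18%. None of these 4 motifs was found in the 4 stretches printed above. The third of domain start regions with the highest percent kept had a median CpG ratio of 0.825 and the third with the lowest had 0.808, which is a description without a test.

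Domain lengths ran from 30.01 to 190.2 kb with a median of 41.06 kb. The region calls behind these lengths were made by the authors from reads of this study, so length and read density are not independent measures. Just above the length limit, the domains of Cd9 (30014 bp), Ywhag (30034 bp) and Dennd1b (30063 bp) kept 16.5%, 18.4% and 10.9% of their DMSO counts. Just below it, the regions of Tmem170b (29946 bp), Mapre2 (29899 bp) and Synj1 (29852 bp) kept 12.5%, 13.3% and 11.9%.

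The domains were domains of long coding genes. A single coding gene was overlapped by 565 of them, 2 or more (up to 4) by 59, and none by 5. In all, 640 coding genes were touched by a domain, which was 6.92% of the 9246 coding genes of these chromosomes with any region. The 579 genes that lead a domain, meaning the coding gene with the longest overlap, had a median length of 89.2 kb, against 24.9 kb for coding genes with any region, as a length of 30 kb or more requires of most of them. Among the 3985 coding genes of at least 30 kb with any region, 14.7% had a domain. A domain covered a median of 47.4% of its leading gene, with quartiles of 32.2% and 67.7%. A pair of domains was led by each of 37 genes, and 3 domains each by Vav3, a guanine nucleotide exchange factor for small GTPases, Alcam, a cell adhesion molecule, Arid1b, a subunit of the BAF chromatin remodeller, and Asap1, a regulator of Arf GTPases.

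Depth and spread were as follows. The totals over all regions were 3.13, 3.01 and 2.95 M counts in the SGC0946 libraries and 16.7, 17.0 and 19.5 M in the DMSO libraries. A domain held a mean of 205 to 30906 counts in SGC0946 and of 1846 to 54318 counts in DMSO. The coefficient of variation of a domain's share of its library had a median of 3.93% over the SGC0946 libraries, where counting alone gives 2.86%, and 2.16% over the DMSO libraries, where counting alone gives 1.09%. Replicates of a group differed by more than sampling noise over the domains, with chi-square per degree of freedom from 2.92 to 4.1 between SGC0946 libraries and from 5.59 to 16.6 between DMSO libraries. The third DMSO library had the highest total, and in each domain whose libraries are given below, other than that of Rxra, its unscaled density was the highest of the DMSO group.

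Taken as a whole, the domains held 36.46%, 36.05% and 37.05% of the counts of the SGC0946 libraries and 35.35%, 35.31% and 35.3% of the counts of the DMSO libraries. All SGC0946 values lay above all DMSO values. The means were 36.52 ± 0.499% and 35.32 ± 0.024% (SD, n = 3 each), a difference of 1.2 percentage points (exact 2-sided permutation p = 0.1, and no smaller p can come from 3 libraries a group). The difference was 3.3 percentage points with background (described below) subtracted from every region, and 1.95 for regions of 20 kb or more. For regions of 50 kb or more it reversed to -0.177 (exact permutation p = 0.4). In counts, the domains summed to 1.14, 1.08 and 1.09 M in the SGC0946 libraries and to 5.92, 6.0 and 6.89 M in the DMSO libraries. The sum in SGC0946 was 17.7% of that in DMSO, against 16.7% for the shorter regions of the same chromosomes.

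That gain of share was uneven over the domains. The 27 domains that kept at least 30% held 6.71 ± 0.251% of the counts in SGC0946 libraries and 2.57 ± 0.0538% in DMSO libraries (SD, n = 3 each). The other domains held 29.8 ± 0.32% in SGC0946 libraries and 32.7 ± 0.0711% in DMSO libraries, so their share was lower. These sets were formed by percent kept, so the higher share of the first set followed from that choice, and they are given as a description. The 5 domains that kept the most made up 6.93% of all domain counts in SGC0946 and 1.91% in DMSO.

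Domain by domain, the unscaled counts of all 629 were lower in SGC0946 (edgeR quasi-likelihood test, Benjamini-Hochberg adjusted p under 0.05 over all regions tested), where 99.8% of the 24005 regions tested were lower. In all 629 every SGC0946 count lay below every DMSO count, as in 99.5% of all regions tested. The median log2 fold change was -2.9 over the domains and -2.64 over all regions tested, with a range from -3.42 to -0.47 over the domains. By share of the library, in which each library is scaled by its total, 457 domains were lower in SGC0946, 117 were higher and 55 did not pass the test. In percent, 72.7% of the domains were lower, against 23.3% of the 23367 regions tested, and 18.6% were higher, against 6.16%. The domains held more counts than most regions. The 1798 shorter regions whose DMSO mean count was at least that of the lowest domain were lower in 59.3% and higher in 24.6%. The median log2 fold change of share was -0.35 for the domains, -0.26 for those shorter regions and -0.09 for all regions tested.

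Percent kept did not go on falling with length. The median was 23.4% in regions of 500 bp, 18.3% in those over 500 bp to 2 kb, 14.4% from 2 to 5 kb and 13.5% from 5 to 10 kb. It was 13.3% from 10 to 20 kb, 13.2% from 20 to 30 kb, 13.4% in the 442 domains of 30 to 50 kb and 13.6% in the 187 domains of 50 kb or more. The 2 shortest classes had median DMSO densities of 26.7 and 35.5 counts per kb, near the DMSO background of 19.9 to 23.7 described below. Their median SGC0946 counts were 3.33 and 6.33. What background adds to their percent kept was not tested. Domains of 30 to 50 kb held 20.8 ± 0.277% of the counts of SGC0946 libraries and 19.4 ± 0.0256% of those of DMSO libraries (SD, n = 3 each, exact permutation p = 0.1). Domains of 50 kb or more held 15.7 ± 0.222% in SGC0946 and 15.9 ± 0.0493% in DMSO (exact permutation p = 0.4). The share was higher in SGC0946 in the class of 30 to 50 kb, and in the longer class the libraries of the groups overlapped.

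**Figure D1:**
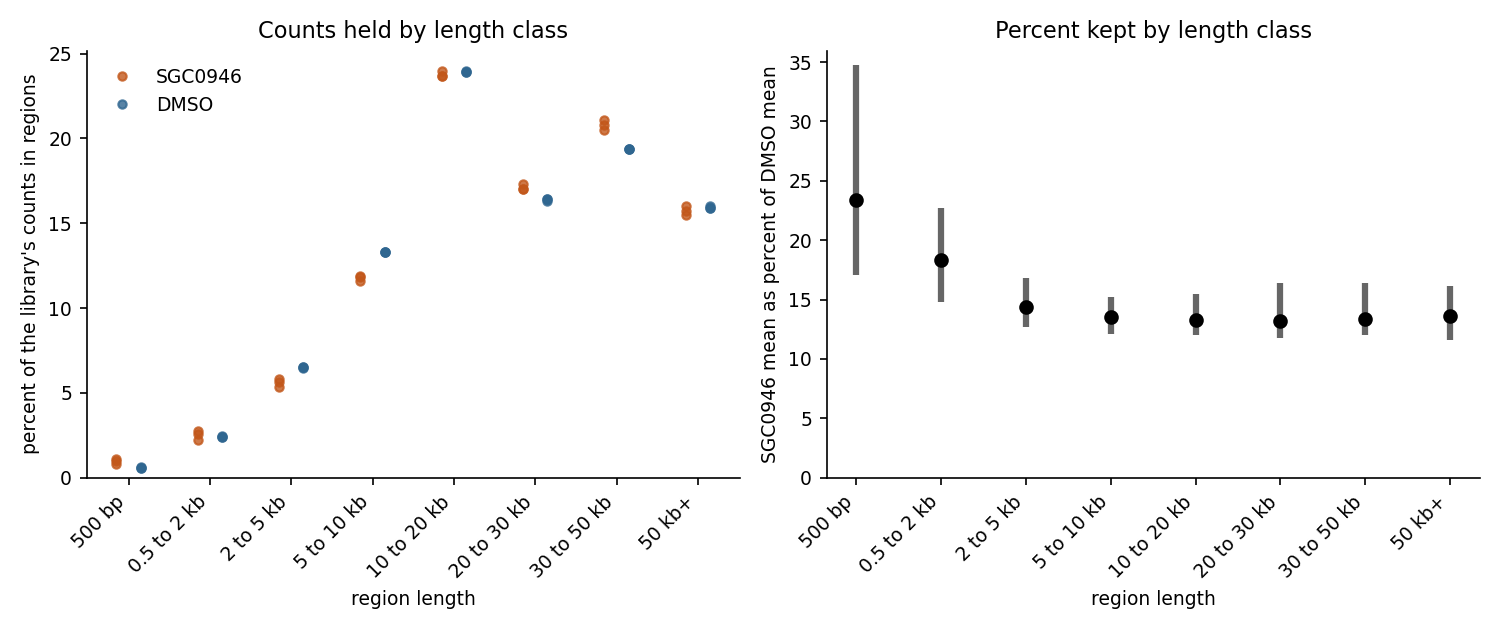
Left, the percent of each library's counts held by regions of each length class, with 1 point per library, SGC0946 left of DMSO; right, the median (point) and quartiles (bar) of the SGC0946 mean count as percent of the DMSO mean in each class. The share of counts in the class of 30 to 50 kb was 20.8% in SGC0946 and 19.4% in DMSO, and the median percent kept was between 13.2% and 13.6% in every class from 10 kb up.

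Density separated the domains where length did not. Counts per kb in SGC0946 ran from 5.9 to 403 with a median of 26.0, and in DMSO from 53.2 to 557 with a median of 198. Percent kept had a Spearman correlation of 0.707 with DMSO counts per kb over the 629 domains, and of -0.0198 with domain length. DMSO counts enter both percent kept and density. With the density taken from the first DMSO library and percent kept from the other two, the correlation was 0.692. These correlations run across domains that share libraries and are descriptions. The median percent kept was 12.3% in the 42 domains under 100 DMSO counts per kb, 11.9% in the 142 from 100 to 150, 12.2% in the 138 from 150 to 200, 14.3% in the 128 from 200 to 250, 16.1% in the 91 from 250 to 300, 21.8% in the 69 from 300 to 400 and 29.3% in the 19 of 400 or more. Up to 200 counts per kb the medians were level, and above it each was higher than the one before.

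By share of the library, 6 of the 322 domains under 200 counts per kb were higher in SGC0946 and 312 were lower. Of the 88 domains of 300 counts per kb or more, 69 were higher and 8 were lower. The 1 domain of at least 400 counts per kb that was lower was that of Ski, a co-repressor that restrains TGF-beta signalling. It had 66.7, 66.2 and 66.9 counts per kb in the SGC0946 libraries and 419.6, 397 and 467 in the DMSO libraries, and kept 15.6%. Under 100 counts per kb the 2 domains that were higher lay inside Fam107b (21.1% kept) and Eya1, a transcriptional coactivator and phosphatase (20.0% kept). These 3 are named because of their values.

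Shorter regions showed the same order. Regions of 5 kb to under 30 kb with the same density kept medians of 13.4%, 12.2%, 13.1%, 14.8%, 17.8%, 22.5% and 29.5% over the same 7 density classes, each of them at or above the median of the domains. The largest gap was 1.7 percentage points, at 250 to 300 counts per kb, and it was not tested.

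**Figure D2:**
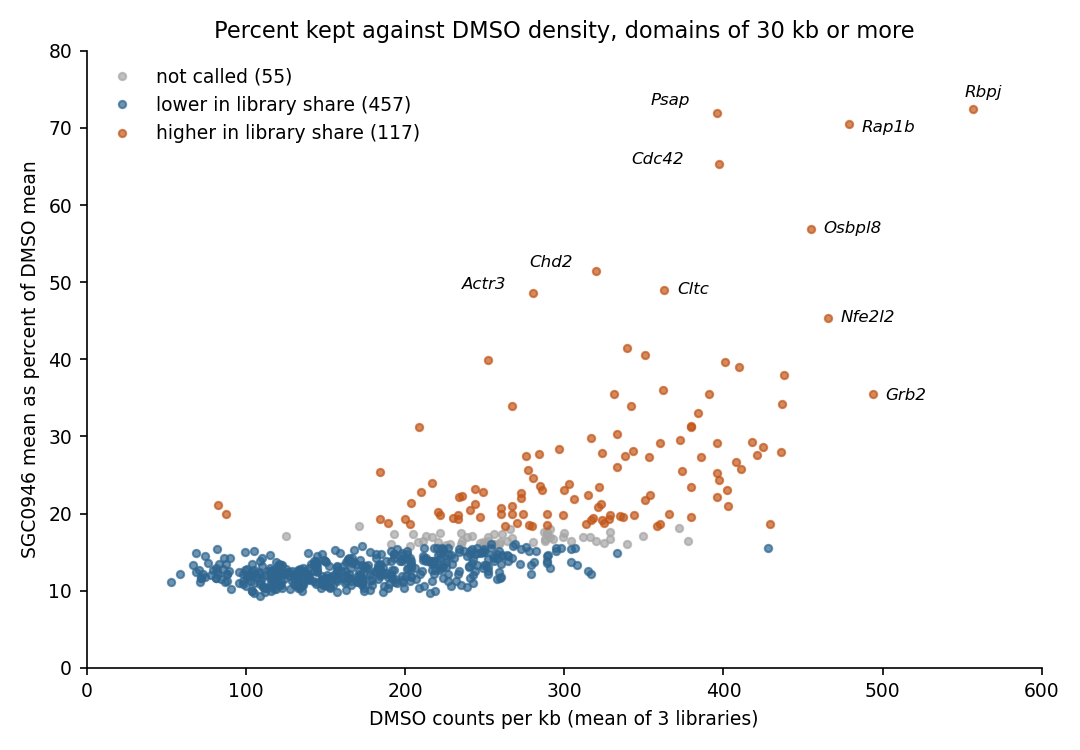
Each point is 1 domain of 30 kb or more, with its DMSO counts per kb on the x axis and its SGC0946 mean count as percent of its DMSO mean on the y axis, coloured by the call on library share (117 higher, 457 lower, 55 not called). The domains of at least 300 counts per kb spread upward to 72.4%, while the medians of the classes under 200 are 11.9% to 12.3%.

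**Figure D3:**
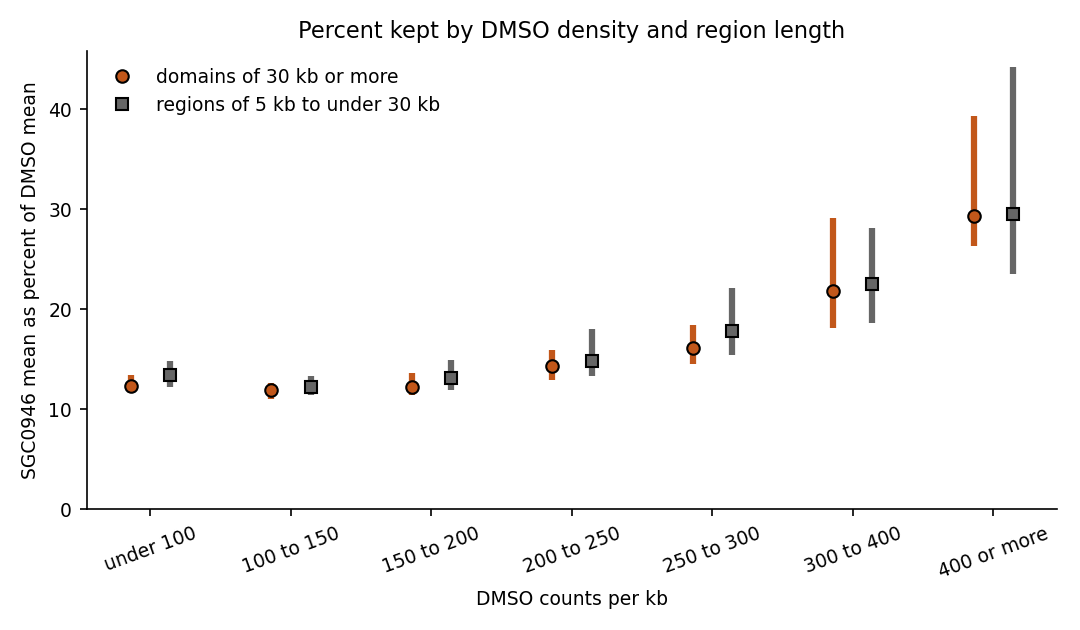
Median (marker) and quartiles (bar) of percent kept in 7 classes of DMSO counts per kb, for the domains and for regions of 5 kb to under 30 kb. Both series are level below 200 counts per kb and reach 29.3% and 29.5% in the densest class.

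The SGC0946 density of the sparsest domains was near the background of the table. In the 25% of all regions with the fewest counts per kb, the SGC0946 libraries had 6.48, 7.09 and 4.82 counts per kb and the DMSO libraries 21.9, 19.9 and 23.7. In SGC0946, 2 domains had a mean density at or under 7.09 counts per kb and 100 had less than 2 times that. In DMSO no domain had less than 2 times the highest of its own values. This background is the density of listed regions, not of the input or of sequence outside regions. Subtracting it can therefore remove signal of the mark as well. With that background subtracted, the median percent kept of the domains was 11.3%. What background adds to the percent kept of single domains was not tested.

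The 8 longest domains covered the range of outcomes. Gnaq, which encodes the alpha subunit of the G protein Gq, led the longest, at chr19:16132554-16322745. It had 29.4, 27.6 and 26.9 counts per kb in the SGC0946 libraries and 190, 188 and 216 in the DMSO libraries, and kept 14.1 ± 0.657% (SD over the SGC0946 libraries, n = 3). The groups were far apart in counts, and its library share was lower in SGC0946, with a log2 fold change of -0.27 ± 0.03 (SE, edgeR adjusted p = 1.1e-10). That call on share was lost under every scaling other than library totals, with adjusted p between 0.057 and 0.28.

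Cmip, an adaptor protein of T cell and kidney signalling, led a domain of 157 kb and kept 12.4%. Ankrd11, a large nuclear protein that binds co-activators, led one of 147 kb with 54.7, 51.5 and 52.8 counts per kb in SGC0946 and 289, 302 and 344 in DMSO. It kept 17.0%, close to the 17.1% of all regions summed, and its share did not pass the test (log2 fold change -0.0, edgeR adjusted p = 0.94). Mbnl1, a regulator of alternative splicing, led a domain of 131 kb and kept 23.5%, with a higher share (log2 fold change 0.46 ± 0.03, edgeR adjusted p = 4.5e-20). The shorter region before it, over the 5′ end of the Mbnl1 span, had 395 DMSO counts per kb and kept 55.7%. Nav2, a cytoskeletal protein known from neurons, led a domain of 130 kb and kept 10.9%. Gramd1b, which moves cholesterol from the plasma membrane to the endoplasmic reticulum, led one of 126 kb and kept 10.8%. Med13l, a subunit of the kinase module of Mediator, led one of 123 kb and kept 11.0%. Of these 8, the shares of Mbnl1 and Osbpl8 were higher in SGC0946, those of Gnaq, Cmip, Nav2, Gramd1b and Med13l lower, and that of Ankrd11 did not pass.

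Osbpl8, a lipid transfer protein at contacts of the endoplasmic reticulum with the plasma membrane, combined length with density. Its domain of 119 kb, at chr10:111163627-111282988, covered 89.2% of the gene. It had 271, 242 and 264 counts per kb in the SGC0946 libraries and 422, 449.9 and 494 in the DMSO libraries. It kept 56.9 ± 3.38%, and its share was higher in SGC0946 (log2 fold change 1.74 ± 0.03, edgeR adjusted p = 1.9e-52). Its unscaled counts still fell with no overlap between the groups.

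The domains that kept the most were dense. Rbpj, the DNA-binding factor of Notch signalling, had the densest domain of all, at chr5:53589670-53628414, with 431, 391 and 388 counts per kb in SGC0946 and 516, 545 and 610.5 in DMSO. It kept 72.4 ± 4.36%, and its share was higher by a log2 fold change of 2.08 ± 0.03 (edgeR adjusted p = 3.5e-56). Psap, the precursor of the lysosomal saposins, had 299, 268 and 287 counts per kb in SGC0946 and 369.8, 383 and 435 in DMSO and kept 71.9 ± 3.9%. Rap1b, a small GTPase of integrin activation, had 359.9, 324 and 329 counts per kb in SGC0946 and 440.2, 474 and 522 in DMSO and kept 70.5 ± 4.06%. In each of these 3 the lowest DMSO library was above the highest SGC0946 library, by a margin that was small beside that of most domains.

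Cdc42, the small GTPase of cell polarity and filopodia, had 277, 246 and 255 counts per kb in SGC0946 and 368, 390 and 432 in DMSO and kept 65.3 ± 4.03%. Chd2, a chromatin remodeller, had 177, 151 and 164 in SGC0946 and 283, 325 and 351 in DMSO and kept 51.4 ± 4.08%. Cltc, the clathrin heavy chain, kept 49.0%, and Actr3, a subunit of the Arp2/3 complex that branches actin filaments, kept 48.6%. These 8 domains had 280.1 to 557 DMSO counts per kb, all above the domain median of 198. The other 3 of the 6 densest domains also had a higher share in SGC0946, namely Grb2, an adaptor of receptor tyrosine kinases (35.5% kept), Nfe2l2, the NRF2 factor of the oxidative stress response (45.4%), and Litaf, a membrane protein of late endosomes (37.9%).

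The domains that kept the least lay between 9.35% and 9.95%. Trio, a guanine nucleotide exchange factor for small GTPases, had a domain of 100.1 kb at chr15:27926732-28026808 with 22.2, 21.3 and 19.3 counts per kb in SGC0946 and 215, 194 and 238 in DMSO. It kept 9.71 ± 0.686%, and its share was lower (log2 fold change -0.82 ± 0.04, edgeR adjusted p = 3.9e-28). Rxra, the nuclear receptor that pairs with LXR and PPAR receptors, had 11.1, 11.5 and 10.3 counts per kb in SGC0946 and 122, 101 and 113 in DMSO and kept 9.8%. Trio's DMSO density of 216 was above the domain median, while that of Rxra, at 112, was below it.

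Ano6, a phospholipid scramblase, had 11.1, 9.44 and 10.4 counts per kb in SGC0946 and 97, 102 and 112 in DMSO and kept 9.95%. Arhgap31, a GTPase-activating protein for Cdc42 and Rac1, kept 9.75%, Anp32a, a histone-binding acidic nuclear protein, 9.79%, Lrrc8d, a subunit of volume-regulated anion channels, 9.85%, and Pacs2, a sorting protein of the endoplasmic reticulum, 9.9%. The SGC0946 densities of these 8 domains were 10.2 to 21.7 counts per kb, above the background of at most 7.09. The 4 sparsest domains in DMSO were those in Cdk6 (53.2 counts per kb), Ccny (58.4), Pid1 (66.5) and Mprip (68.5). In unscaled counts they kept 11.1%, 12.1%, 13.3% and 14.9%, more than the 8 above. Their SGC0946 densities were 5.9, 7.07, 8.85 and 10.2 counts per kb, and those of Cdk6 and Ccny were under the background of 7.09. What background adds to their percent kept was not tested, so their rank is not settled. The lower share of the Mprip domain (edgeR adjusted p = 0.0065) did not hold under the other scalings or without the third SGC0946 library (adjusted p = 0.15).

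**Figure D4:**
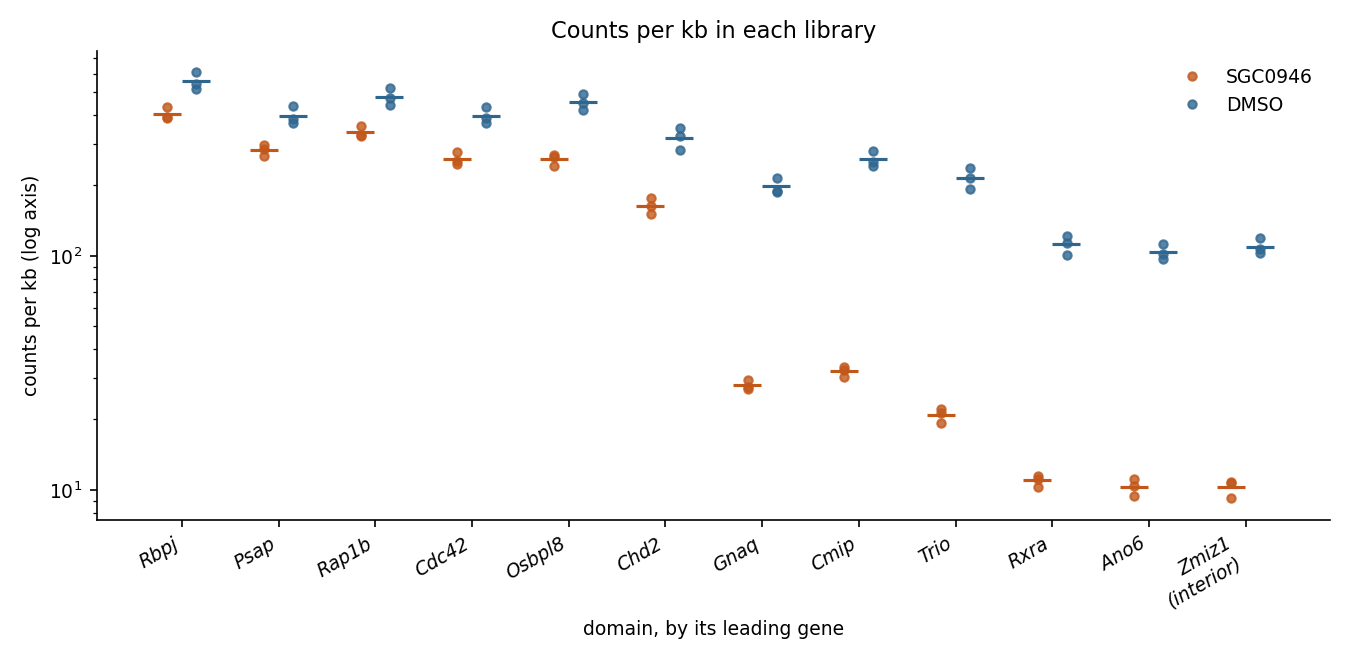
Counts per kb in each of the 3 SGC0946 (left of each pair) and 3 DMSO libraries (right), on a log axis, with lines at the group means, for 6 domains that kept the most, the 2 longest and 4 that kept the least. The pairs stand close together from Rbpj to Chd2 and about 10 times apart from Trio to the interior Zmiz1 domain.

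Most domains began at a gene's start. The strand was known for the leading gene of 500 domains. Of these, 438 lay at a start, meaning that a start site was inside the domain (366) or no more than 2 kb upstream of its edge (72). The edge was within 1 kb of the start on either side in 337. Over the 438, the edge lay a median of 0.211 kb upstream of the start, with edges past the start counted as negative, and the domain reached a median of 40.2 kb downstream of it. Of the domains at a start, 10 reached the end of the gene, and the median domain stopped 36.8 kb short of it. A further 62 lay wholly beyond the start, 56 of them by over 10 kb.

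Domains beyond the start were sparser and kept less than those at a start. Their median density in DMSO was 119 counts per kb, against 212 for those at a start. They kept a median of 12.1% (quartiles 11.2% and 12.8%), against 13.8% (12.0% and 17.0%) at a start. Over all domains, those of 100 to 150 DMSO counts per kb kept a median of 11.9% and those of 200 to 250 kept 14.3%. Position was not tested apart from density. By share, 4 of the 62 domains beyond the start were higher in SGC0946 and 57 lower, against 92 higher and 302 lower of the 438 at a start. Of all domain counts, those beyond the start held 4.6%, 4.71% and 4.44% in the SGC0946 libraries and 5.93%, 5.88% and 5.89% in the DMSO libraries. Every SGC0946 value was below every DMSO value (means 4.58 ± 0.139% and 5.9 ± 0.0307%, SD, n = 3 each, exact permutation p = 0.1).

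In 24 genes a domain at the start was followed by 1 or more beyond it, which compares domains within a gene. The domains beyond the start were less dense in 24 of 24 genes and kept less in 17 of 24. The median over these genes was 11.8% kept beyond the start and 13.6% at it, with 113 and 209 DMSO counts per kb. Zmiz1, a co-activator of transcription factors, held the domain that kept the least of all. Beyond its start, at chr14:25600909-25644173, it had 10.7, 10.8 and 9.2 counts per kb in SGC0946 and 107, 103 and 119 in DMSO and kept 9.35 ± 0.823%. Its domain of 118 kb at the start had 52.1, 50.4 and 51.6 counts per kb in SGC0946 and 270, 264 and 305 in DMSO and kept 18.4 ± 0.321%. By share the domain beyond the start was lower (log2 fold change -0.87 ± 0.05, edgeR adjusted p = 3.6e-23) and the one at the start higher (0.1 ± 0.03, edgeR adjusted p = 0.0096).

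Qk, an RNA-binding regulator of splicing, kept 11.8% beyond the start and 25.7% at it, and Rab8b, a GTPase of vesicle traffic, 13.7% and 27.6%. Alcam kept 11.2% over its domains beyond the start and 19.3% at it. These 3 were chosen after their values were seen. In the opposite direction, Etv6, a transcriptional repressor, kept 12.5% beyond the start and 11.6% at it. Zeb2, a transcription factor of the macrophage lineage, kept less beyond the start (19.5%) than at it (21.8%), with both domains higher in share.

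**Figure D5:**
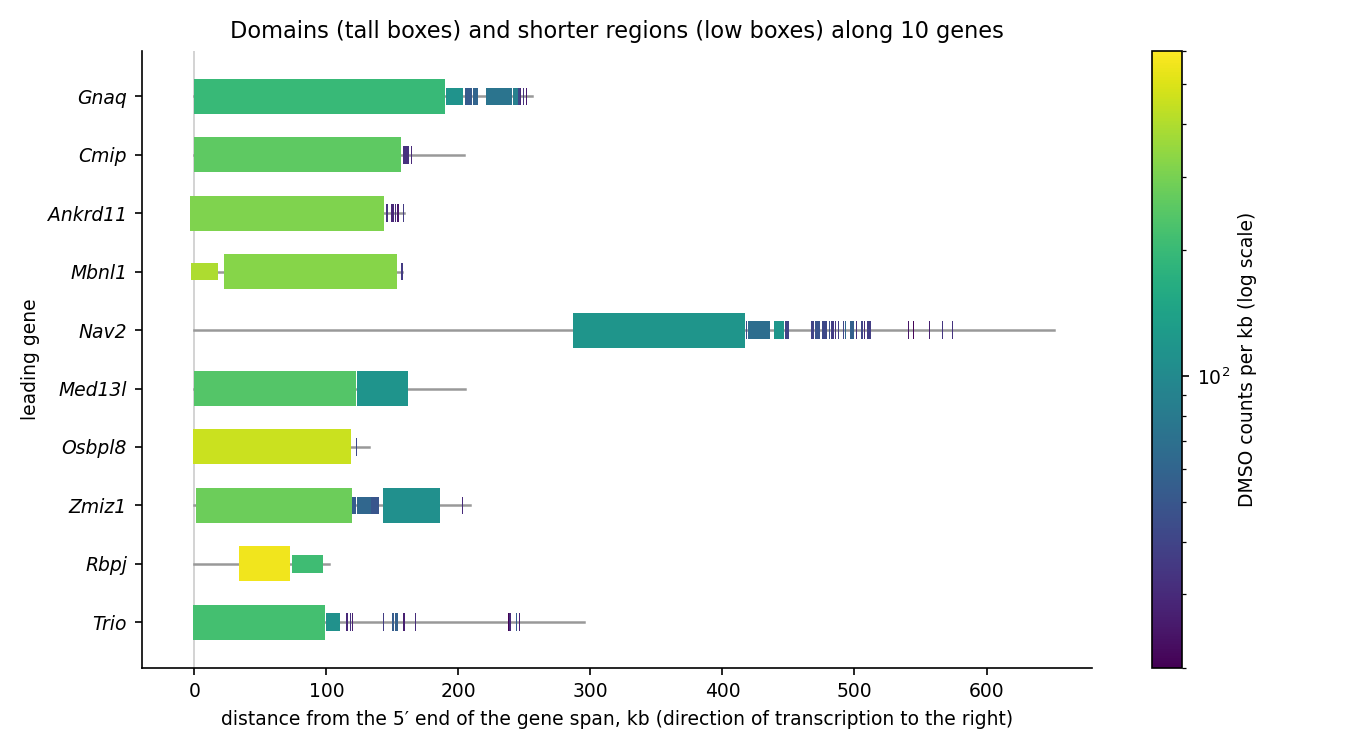
Domains (tall boxes) and shorter regions (low boxes) along 10 genes, drawn in kb from the 5′ end of the gene span (thin line) and coloured by DMSO counts per kb on a log scale. The domains of Gnaq, Cmip, Ankrd11, Med13l and Osbpl8 begin at the 5′ end, those of Nav2 and Rbpj begin inside the span at a later start site, and the Zmiz1 and Med13l domains further in are less dense than the ones before them.

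The genes that lead a domain also led 3328 shorter regions, with a median length of 0.835 kb and 36.7 DMSO counts per kb. Summed, these kept 14.8% of their DMSO counts. In the 364 genes with at least 100 DMSO counts in such regions, the shorter regions kept more than the domains in 230, with medians of 14.7% and 13.1%. The highest DMSO background was 23.7 counts per kb, and what background adds to the shorter regions was not tested.

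Gene lists are set here against all coding genes with any region, of which 6.92% had a domain, or 14.7% of those of 30 kb or more. Their calls on library share are set against 18.6% higher and 72.7% lower over all domains, and their percent kept against medians of 13.4% over all domains and 16.1% over all regions tested. These calls use library totals, and the other scalings left 324 to 361 of all domains lower, against 457. Of the genes of 30 kb or more with a region, 20 of 28 in myeloid receptor signalling, 12 of 23 in actin and adhesion and 18 of 33 in chromatin regulation had a domain. The lists were chosen with results of these data known, so these shares are descriptions. Of 30 genes of myeloid receptor signalling, 20 had one, and of these 3 were higher in share, 15 lower and 2 not called, with a median of 13.9% kept. Grb2 (35.5% kept), Ptprc, which encodes the phosphatase CD45 (18.5%), and Lyn, a Src family kinase (18.4%), were the 3 that were higher. The log2 fold change of share was 1.06 for Grb2. It was only 0.11 for Ptprc (edgeR adjusted p = 0.018) and 0.11 for Lyn (edgeR adjusted p = 0.028). Ptprj, a receptor phosphatase with a domain of 109 kb, kept 12.1%, and Elmo1, a partner of DOCK proteins in engulfment, 11.6%, both lower in share. The calls on Vav3 and Cblb, an E3 ubiquitin ligase, were lower as well but depended on the scaling, and that on Cblb (edgeR adjusted p = 0.017) was lost without the first (0.061) or the second SGC0946 library (0.11). Of 28 actin and adhesion genes, 12 had a domain, with 2 higher, 6 lower and 4 not called and a median of 15.9%. The higher ones were Iqgap1, a scaffold of actin regulators, which had 133, 121 and 126 counts per kb in SGC0946 and 355, 383 and 414 in DMSO and kept 33.0%, and Wasf2, a subunit of the WAVE complex, which kept 28.6%. Ptk2b, a kinase related to focal adhesion kinase, kept 15.6% and was lower only when libraries were scaled by their totals.

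Of 35 chromatin regulators, 18 had a domain, with 3 higher, 13 lower and 2 not called and a median of 13.0%. Chd2 and Kmt2e, an MLL family protein (22.8%), were among those that were higher. Tet3, a dioxygenase of methylated cytosine, kept 11.2% and Kmt2a, an H3K4 methyltransferase, 10.6%, both lower. Of 27 genes of DOT1L and elongation, 5 had a domain. Aff1, a scaffold of the super elongation complex, kept 10.1% in its longer domain and 10.5% in the other, Ell2, an elongation factor, kept 12.6%, and Ell kept 17.0% without passing the test (log2 fold change -0.01, edgeR adjusted p = 0.94). Kmt2a is in both of these groups.

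Of 28 macrophage identity genes, 27 had a region and 2 a domain, a share of 7.41% of those with a region. Of the 11 with a region that were 30 kb or longer, 2 had a domain. The Zeb2 domain at the start had 79.9, 71.1 and 78.6 counts per kb in SGC0946 and 326, 343 and 385 in DMSO and kept 21.8%, with a higher share (log2 fold change 0.35 ± 0.04, edgeR adjusted p = 2.7e-13). The domain of Runx1, a transcription factor of blood cell development, kept 13.4%, with a lower share (log2 fold change -0.35 ± 0.05, edgeR adjusted p = 1.9e-09). Of 30 genes of lipid synthesis and sterol control, 2 had a domain and both were lower in share, Elovl5, a fatty acid elongase (11.7% kept), and Lpin2, a phosphatidate phosphatase (11.8%). Of 21 genes of cholesterol efflux and transport, 6 had one, with Osbpl8 higher and 5 lower. Scarb1, the HDL receptor, kept 10.7%, Abcg1, a cholesterol exporter, 13.2%, and Soat1, which esterifies cholesterol, 14.8%, beside Gramd1b and Rxra given above. The lower share of Soat1 was small (log2 fold change -0.2, edgeR adjusted p = 2.7e-05), and its dependence on the scaling is not given here.

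Of 34 genes of inflammation and interferon, 6 had a domain. Tab2, an adaptor of the kinase TAK1, kept 20.0% with a higher share, Jak1, a cytokine receptor kinase, 11.3%, Traf3, a signalling adaptor, 12.4%, and Irak2, a kinase of Toll-like receptor signalling, 12.7%, all 3 lower. Irf2, an interferon regulatory factor, kept 15.0%, and its lower share depended on the scaling. Mapk14, the p38 alpha kinase, kept 16.0% and did not pass (edgeR adjusted p = 0.077). Of 24 genes of autophagy and the lysosome, 4 had one. Psap and Rab7, the GTPase of late endosomes (26.7% kept), were higher, Wdfy3, a scaffold of selective autophagy, kept 9.96% and was lower, and Vps13c, a lipid transfer protein, kept 14.9% with a lower share that depended on the scaling. None of 28 genes of other blood cells and none of 20 stromal and endothelial genes had a domain. Of these, 6 and 3 had a region, and 1 and 2 of those with a region were 30 kb or longer, too few to read their lack of a domain.

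The 5 domains without a coding gene lay over long non-coding genes. The one at chr14:61630662-61683356 covered Dleu2, the host of the microRNA genes Mir16-1 and Mir15a. It had 56.2, 50.6 and 50.7 counts per kb in SGC0946 and 215, 236 and 258 in DMSO and kept 22.3%, with a higher share (log2 fold change 0.38 ± 0.04, edgeR adjusted p = 1.3e-13). The mature 5p products of these microRNA genes, both on the minus strand inside the domain, at chr14:61632075-61632096 for Mir15a and chr14:61631936-61631957 for Mir16-1, are shown with the seed (bases 2 to 8) in capitals because they share it.
mmu-miR-15a-5p: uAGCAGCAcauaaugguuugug
mmu-miR-16-5p: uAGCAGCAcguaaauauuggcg
The domain over Lncpint, a p53-induced non-coding RNA, had 52.9, 48.4 and 56.4 counts per kb in SGC0946 and 279, 291 and 329 in DMSO. It kept 17.5% and did not pass (log2 fold change 0.04 ± 0.04, edgeR adjusted p = 0.53). The domains over Pvt1, a neighbour of Myc (11.3% kept), Morrbid, a non-coding regulator of myeloid cell survival (11.0%), and Gm16897 (12.6%) were lower in share. Over all domains, 24 microRNA genes lay in 22 domains.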

How the data were processed

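Per the labels' protocols, H3K79me2 chromatin was precipitated and sequenced from a single end (50 bp, nominally 40 M reads a sample). The authors deposited whole-number read counts for 29397 regions in 6 libraries, with no scaling visible, and 1 further column of zeros that was not used. The submitters' processing notes name R 3.6.3, ChIPseeker 1.20.0, HOMER 4.11.1, HISAT2 and bedtools 2.27.0, with the build mm10. Region calling, pooling of replicates and duplicate removal, each of which could change lengths and counts, are not given in the sources available.

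Regions were matched to RefSeq gene spans of GRCm38.p6, and 461 listed start regions fell inside domains. Exons were not used. A region was named for the coding gene it overlaps most. Reads of overlapping genes cannot be told apart. Counts were tested over the whole table by edgeR 4.0.16 under R 4.3.3 (F test of the quasi-likelihood fit, filterByExpr, Benjamini-Hochberg adjusted p under 0.05), with library totals as library sizes and factors of 1, and again with 1 equal library size. Standard errors were computed from log2 fold changes and F statistics. The biological coefficient of variation was 3.57% with library totals and 8.83% unscaled. The step was tested on simulated counts of this comparison over 23493 regions and recovered 22% of 1.25-fold, 48% of 1.5-fold, 80% of 2-fold and 100% of 4-fold changes, with 4 false calls. In the simulation a small set of regions was raised in SGC0946, the rest had equal shares, and the spread between replicates was the same for all. It therefore does not cover shares that move in many regions, or the choice of scaling. Single values per library were compared by exact permutation. The edgeR p-values set a difference between groups against the spread between these libraries, estimated with help from all regions tested. DESeq2 1.42.0 was an alternative. Python 3.11.15, pandas 2.3.3, numpy 2.4.6, scipy 1.17.1 and matplotlib 3.10.9 were used.

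Named domains are the 8 longest, the 6 densest and 4 sparsest in DMSO, the 8 that kept the most and the 8 that kept the least among those past the share test without overlap of the groups, up to 4 per gene list by length, and the 3 on each side of 30 kb. Others in the text were chosen after their values were seen. The domains and gene lists were chosen with earlier results of these data known. The classes of density and position, the 2 kb allowance at starts and the motifs were chosen after the data were seen. Some named members of the gene lists are not reported here.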

Additional observations from a re-analysis of the deposited data

How the results depend on the processing

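At a minimum length of 20 kb, 929 of 1295 regions were lower in library share, 242 were higher and all 1295 were lower in unscaled counts. At 50 kb these numbers were 139, 35 and 187 of 187. The difference of the domains' share of library counts, SGC0946 minus DMSO, was 3.3 percentage points with background subtracted and 1.95 at 20 kb, and reversed at 50 kb to -0.177 (exact permutation p = 0.4). The median percent kept was 11.3% with background subtracted and 13.0% to 14.2% when a library was left out. Counting only genes with at least 50% of their span in a domain left 309 of 640. TMM factors, DESeq2 size factors, the DESeq2 Wald test or scaling on regions under 5 kb left 324 to 361 domains lower and 105 to 121 higher. They moved the median log2 fold change of all regions tested from -0.09 to between -0.02 and 0.09. Of 684 values of 57 named domains under these alternatives, no count filter, the replicate block and each library left out, 653 kept their direction and side of the threshold and 29 lost the call. The Cblb domain reversed, at 0.0, with DESeq2 size factors and under the DESeq2 Wald test, against -0.11. The 7 named domains that changed were those of Mprip, Ptk2b, Cblb, Gnaq, Vav3, Irf2 and Vps13c. The cause was not tested. The deviations of same-numbered libraries had correlations of 0.00367, -0.0613 and -0.000773 over all regions tested, and 0.0903, -0.462 and -0.382 over the domains. Libraries of unlike number had -0.368 to 0.521 over the domains. With 3 libraries a group, such values cannot decide whether the numbers mark pairs. The sources name no block, so the main tests did not take the numbers as pairs. With the replicate block, 454 domains were lower and 114 higher in share, 629 were lower unscaled, the difference of share was 1.2 (exact sign permutation p = 0.25, the smallest 3 pairs allow), and among named domains the Cblb call was lost (adjusted p = 0.051). Depth limits SGC0946 densities near background, which 100 domains approached.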

Other observations

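Chromosome X held 11 regions of 30 kb or more, which are not among the domains described. They kept 14.2% to 36.2% of their DMSO counts with a median of 18.1%, at a median of 163 DMSO counts per kb, and 4 were higher and 3 lower in library share. Zfx, a zinc finger transcription factor, kept 36.2% at 194 DMSO counts per kb, and Msn, the actin-membrane linker moesin, 32.2% at 215. Kdm6a, an H3K27 demethylase, and Elf4, an ETS factor, each kept 15.6%.

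A few further domains are given for their values. Actr2, the partner of Actr3 in the Arp2/3 complex, had 105, 96 and 100.3 counts per kb in SGC0946 and 236, 244 and 275 in DMSO and kept 39.9%. Lcp1, the actin-bundling protein of leukocytes, kept 35.5%, and the domain over Rhoa, the GTPase of stress fibres, which also overlaps Tcta, kept 40.6%. The domain of 47.1 kb over Cd180, a Toll-like receptor homologue with a gene span of 13.1 kb, also overlaps Mast4 and kept 31.2% at 209 DMSO counts per kb.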
